A study of Homo sapiens with 4 samples.

Results

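Genes for the extracellular matrix and the proteases that cut it were examined in H3K27ac profiles of Kasumi-1, a human acute myeloid leukaemia cell line that carries the t(8;21) fusion RUNX1::RUNX1T1. Members were the collagens (names of COL and a number), the laminin chains (LAMA, LAMB and LAMC), the matrix metalloproteinases (MMP) and every gene whose name begins with ADAM, which takes in ADAMTS, ADAMTSL and their antisense and pseudogene names. They numbered 68 of the 13171 genes to which a region was assigned, and 175 of the 45672 regions. The tested cells carried CRISPR/Cas9 with a guide against SETD8 (sgSETD8, 2 samples), and the others carried sgNT and are labelled wild type (2 samples). SETD8, also called KMT5A, is the enzyme that puts 1 methyl group on lysine 20 of histone H4. H3K27ac, an acetyl mark of active enhancers and promoters, was mapped by CUT&Tag, in which an antibody guides a transposase to the marked chromatin. The knockout of SETD8 itself cannot be checked in regions of this mark, and whether the cells are 1 clone is not stated.

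The data were 4 tables of regions, each region a peak or several peaks stitched together, with a position in hg38, a nearest gene and 1 signal value. They form a sparse pair (7276 regions in sgSETD8, 5186 in sgNT) and a dense pair (18061 in sgSETD8, 15149 in sgNT), so each pair holds 1 table per group. Depth is unknown, and a region's rank by signal, which grows with its stitched length, is given to place it within its own table. The tables differ in length, so ranks are not compared between groups. With 2 tables against 2, an exact two-sided permutation test cannot give a p below 0.333, so no p is given. Intervals are exact 95% intervals that cover counting only. All 10 myeloid progenitor genes checked, among them CD34, KIT, MPO and RUNX1, had a region in at least 1 table, with 13 regions in sgSETD8 and 18 in sgNT in the sparse pair, and 60 in sgSETD8 and 68 in sgNT in the dense pair. MYB alone had 3 in dense sgSETD8 and 13 in dense sgNT, and the other 9 genes had 57 in sgSETD8 and 55 in sgNT.

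Collagens are triple-helical proteins, and they and the laminins, which are trimers of an alpha, a beta and a gamma chain, form the fibres and basement membranes that surround cells. MMPs and ADAMTS proteases cut matrix proteins, while most ADAMs sit in the cell membrane and either release the outer parts of other membrane proteins or, where the catalytic site is lost, act in adhesion. In bone marrow such proteins belong mainly to stromal and endothelial cells, but blood cells use several of the proteases to shed receptors and to move through matrix.

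Few of the listed promoters of member genes lay under a region. Of 118 member promoters in RefSeq (GRCh38.p14, 250 bases before to 50 after the start), 4 were overlapped by a region of any table. They were those of LAMA3, MMP14 and ADAM10, each overlapped in both dense tables, and that of LAMB2, overlapped in dense sgNT only. The sparse tables overlapped none of the 118. Of all promoters in that list, dense regions overlapped 9.34% in sgSETD8 and 8.00% in sgNT. By the deposited distances, some further regions also spanned the start of their named gene. The 24.0 kb ADAM9 region of dense sgNT was centred 8.28 kb from that start. The 13.7 kb MMP28 region of dense sgSETD8 was centred 0.19 kb from its start. The 7.165 kb MMP23A region of sparse sgSETD8 was centred 0.423 kb from its start. Why these starts are not among the 4 was not examined. The 4 thus count the listed promoters only, and not every start of these genes that a region reached. The 3 of the 4 promoters that lay under a region named for the gene itself are printed. They run 5′ to 3′ on the gene's strand, with capitals on matches, on either strand, to AP-1 (TGANTCA), RUNX (TGTGGT) and ETS (CCGGAA) letters:
LAMA3 promoter, chr18:23872770-23873069, plus strand: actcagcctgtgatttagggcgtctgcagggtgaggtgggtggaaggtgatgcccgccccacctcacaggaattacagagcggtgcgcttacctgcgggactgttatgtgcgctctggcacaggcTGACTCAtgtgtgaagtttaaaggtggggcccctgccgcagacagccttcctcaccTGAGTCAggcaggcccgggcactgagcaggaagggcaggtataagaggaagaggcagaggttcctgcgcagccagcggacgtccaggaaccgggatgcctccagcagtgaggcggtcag
MMP14 promoter, chr14:22836335-22836634, plus strand: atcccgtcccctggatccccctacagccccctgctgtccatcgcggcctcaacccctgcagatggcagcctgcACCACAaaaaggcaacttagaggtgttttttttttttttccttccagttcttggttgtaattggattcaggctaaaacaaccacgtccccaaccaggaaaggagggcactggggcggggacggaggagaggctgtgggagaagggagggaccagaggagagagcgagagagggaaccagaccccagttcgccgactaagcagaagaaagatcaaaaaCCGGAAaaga
LAMB2 promoter, chr3:49133001-49133300, minus strand: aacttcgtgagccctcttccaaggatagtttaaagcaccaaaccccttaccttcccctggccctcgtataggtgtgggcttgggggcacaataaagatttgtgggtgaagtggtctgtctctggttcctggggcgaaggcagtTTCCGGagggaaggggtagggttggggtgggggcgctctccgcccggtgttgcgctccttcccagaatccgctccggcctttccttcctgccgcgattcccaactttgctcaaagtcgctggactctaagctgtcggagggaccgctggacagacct
The LAMA3 window held 2 AP-1 matches. The MMP14 window held 1 RUNX and 1 ETS match, and the LAMB2 window held 1 ETS match. Across all 35116 promoters of that length, 7.71% held the AP-1 letters, 13.1% the RUNX letters and 17.2% the ETS letters. The GATA letters (AGATAA), held by 10.3%, were in none of these 3 windows. A match is a description of these letters and no evidence of binding.

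More regions named matrix and protease genes in sgSETD8 than in sgNT, in both pairs. The sparse pair had 57 regions in sgSETD8 and 19 in sgNT, and the dense pair had 63 in sgSETD8 and 36 in sgNT. Both sgSETD8 tables thus lay above both sgNT tables, with means of 60.0 ± 4.24 in sgSETD8 and 27.5 ± 12.0 in sgNT (SD, n = 2 tables each). The ratio was 3.00 (95% interval 1.76 to 5.34) in the sparse pair and 1.75 (1.14 to 2.71) in the dense pair. Over all regions it was 1.40 (1.35 to 1.45) and 1.19 (1.17 to 1.22). On the log2 scale the members' ratios averaged 1.20 ± 0.55 and those of all regions 0.37 ± 0.17 (SD, n = 2 pairs). As a share of the table, members made up 0.783% in sgSETD8 and 0.366% in sgNT in the sparse pair, and 0.349% in sgSETD8 and 0.238% in sgNT in the dense pair. The shares were higher in sgSETD8 within each pair, but the sparse sgNT share exceeded that of dense sgSETD8, so the groups overlapped on this measure.

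**Figure D1:**
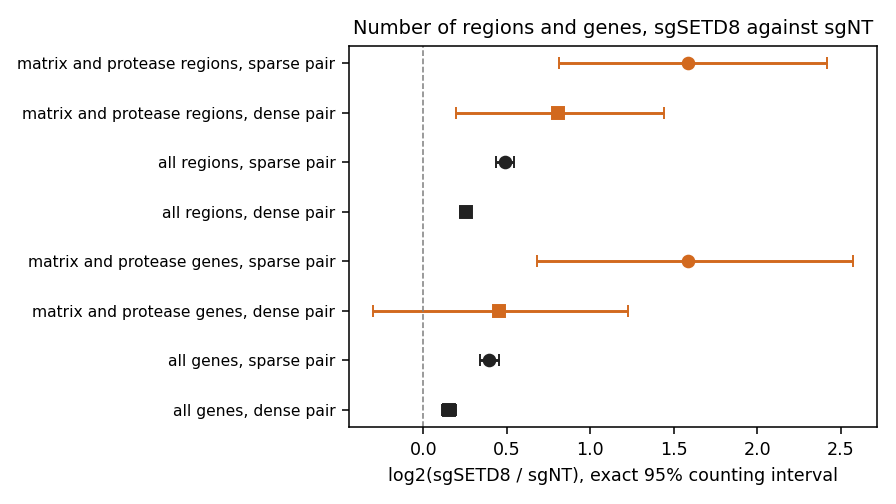
Log2 ratio of the number of regions or genes in sgSETD8 to that in sgNT (x axis), for matrix and protease genes (orange) and for everything in the tables (black), with circles for the sparse and squares for the dense pair and bars for exact 95% counting intervals. All 8 points lie above 0, and the interval of the members' gene count in the dense pair, from -0.30 to 1.23, takes in 0.

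Counted as genes, 42 in sgSETD8 and 14 in sgNT had a region in the sparse pair, and 37 in sgSETD8 and 27 in sgNT in the dense pair. The dense ratio of 1.37 had an interval of 0.812 to 2.34, against 1.11 for all genes. In the sparse pair 35 of 47 members with a region had more regions in sgSETD8, against 51.3% of all genes, and 6 had fewer, against 33.4%. In the dense pair 19 of 41 had more, against 37.3% of all genes, and 6 had fewer, against 21.2%. Of the 68 members, 37 (54.4%) had a region in 1 table only, against 35.3% of all genes. Those in sparse sgSETD8 only numbered 25 (36.8%), against 14.0% of all genes.

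The collagens differed most in the sparse pair and little in the dense pair. Their regions numbered 20 in sgSETD8 and 3 in sgNT in the sparse pair, and 14 in sgSETD8 and 11 in sgNT in the dense pair. Laminin chains had 7 in sgSETD8 and 5 in sgNT in the sparse pair, and 8 in each group in the dense pair. MMPs had 7 in sgSETD8 and 5 in sgNT in the sparse pair, and 8 in sgSETD8 and 4 in sgNT in the dense pair. ADAMs had 9 in sgSETD8 and 2 in sgNT in the sparse pair, and 9 in sgSETD8 and 6 in sgNT in the dense pair. ADAMTS and ADAMTSL genes had 11 in sgSETD8 and 4 in sgNT in the sparse pair, and 17 in sgSETD8 and 4 in sgNT in the dense pair. Of these families, the ADAMTS group had the largest ratio of sgSETD8 to sgNT in the dense pair, and the collagens had it in the sparse pair. The remaining regions carried antisense, divergent or pseudogene names.

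**Figure D2:**
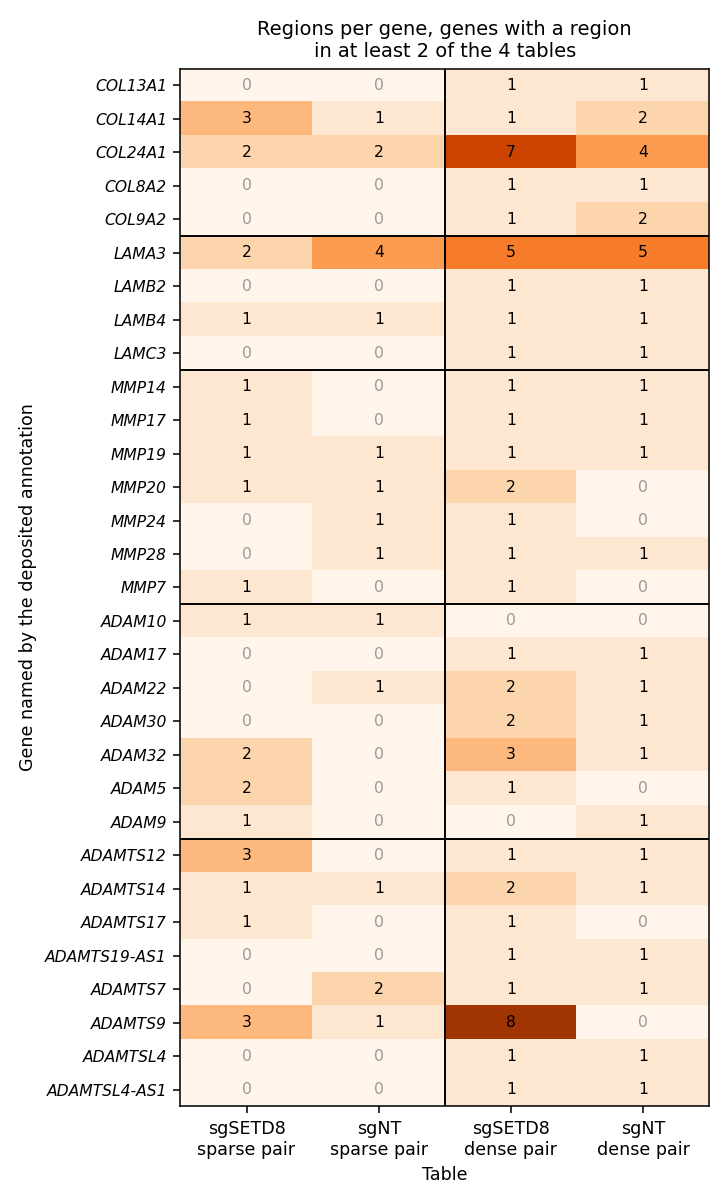
Number of regions per gene (rows, grouped as collagens, laminins, MMPs, ADAMs and ADAMTS genes) in each table (columns), for the 31 genes with a region in at least 2 tables. Zeros are grey and darker cells hold more regions; ADAMTS9 in dense sgSETD8 has the highest count, 8.

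LAMA3, the alpha3 chain of the laminins under epithelia, had the best-ranked regions of all members in each table but dense sgSETD8. Its best region ranked 2 of 7276 in sparse sgSETD8 (chr18:23846235-23866351, 20.1 kb of 4 peaks) and 71 of 5186 in sparse sgNT. In the dense pair its best region ranked 533 of 18061 in sgSETD8 and 206 of 15149 in sgNT. It had 2 regions in sgSETD8 and 4 in sgNT in the sparse pair, and 5 in each group in the dense pair. The dense regions covered 118.8 kb in sgSETD8 and 133.9 kb in sgNT. A single dense sgNT region of 15 peaks, chr18:23824405-23891989, was overlapped by 2 separate regions in dense sgSETD8. LAMA3 thus had regions inside its gene body in all 4 tables. Other laminin chains had single regions. LAMB4 had 1 region in each of the 4 tables at one position, 0.506 kb long in sgSETD8 and 0.788 kb in sgNT in the sparse pair, and 1.85 kb in sgSETD8 and 0.80 kb in sgNT in the dense pair. LAMB2, the beta2 chain, had 1 region of 5.01 kb in dense sgSETD8 and 1 of 9.71 kb in dense sgNT. LAMC3, a gamma chain, had regions 228 bp apart in the dense pair, 0.56 kb long in sgSETD8 and 1.95 kb in sgNT. LAMA2, LAMA5, LAMB1 and LAMB3 each had 1 region in sparse sgSETD8 and none elsewhere.

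Among the collagens, COL24A1 and COL14A1 had regions in all 4 tables. COL24A1, a fibrillar collagen, had 2 regions in each group in the sparse pair, and 7 in sgSETD8 and 4 in sgNT in the dense pair. All 4 dense sgNT regions had a counterpart, an overlapping region, in dense sgSETD8, and the 3 further sgSETD8 regions lay 18.4 to 64.7 kb from the nearest sgNT region. One intronic position near chr1:86137467-86138807 was found in every table. COL14A1, a collagen that decorates fibrils, had 3 regions in sgSETD8 and 1 in sgNT among the sparse regions. In the dense pair it had 1 region in sgSETD8, 119 kb of 24 peaks, and 2 in sgNT that together covered 10.5 kb. The long sgSETD8 region overlapped sgNT regions named COL14A1 and DEPTOR, the neighbouring gene, so the stitched length and the name differ more than the positions do. COL9A2, of cartilage collagen IX, had 1 region in dense sgSETD8 and 2 in dense sgNT. COL8A2 had 1 in each, 0.566 kb in sgSETD8 and 3.69 kb in sgNT, 4.2 kb apart. COL19A1 had 1 region of 0.351 kb in dense sgNT and no other.

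Several collagens of connective tissue had regions in sparse sgSETD8 only. COL1A2, a chain of type I collagen, had 1 region of 0.792 kb there at its 3′ UTR, with a signal density of 5.79 per bp and rank 253. COL6A1 had 2 regions, the better one at its 3′ UTR with rank 870. COL6A3 had 1 at its 3′ UTR with rank 1108, and COL6A2 had 1 in an exon with rank 1763. With the region of MMP14 at its 3′ UTR, rank 1116, 4 of 57 member regions in that table (7.02%) were annotated to a 3′ UTR, against 1.57% of all its regions. COL6A6, another collagen VI chain, had 1 region of 7.80 kb with rank 554, and COL22A1, of tissue junctions, had 5 regions over 15.3 kb with best rank 175. None of these collagens had a region in the other 3 tables. In sparse sgSETD8, 2 of 8 fibroblast markers, DCN and TWIST2, had 1 region each, while both dense tables and sparse sgNT had none for any of the 8. LUM, PDGFRB, TWIST1, PRRX1, TCF21 and FAP had none in any table. Of 6 epithelial markers, KRT18 and GRHL2 had 1 region each in sparse sgSETD8 and EPCAM had 1 in dense sgSETD8, and neither sgNT table had any. In sparse sgSETD8, 17.6% of all protein-coding genes in RefSeq had a region, against 2 of 8 and 2 of 6 in these lists. The 5 endothelial markers had 6 regions in sgSETD8 and 4 in sgNT in the sparse pair, and 10 in sgSETD8 and 7 in sgNT in the dense pair, at PECAM1, ERG and CDH5, with none at TEK and VWF. The part of other cells in these regions was not tested.

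MMP7 and MMP20, neighbours in the MMP cluster of chromosome 11, were marked over a longer stretch in dense sgSETD8. MMP7, or matrilysin, had 1 region in sparse sgSETD8, 1 in dense sgSETD8 and none in either sgNT table. MMP20, or enamelysin, had 1 region in each group in the sparse pair, 2 in dense sgSETD8 and none in dense sgNT. The dense sgSETD8 regions were 24.6 kb for MMP7 (chr11:102537247-102561827, rank 2566) and 22.4 kb for MMP20 (chr11:102577635-102600037, rank 3358). The nearest dense sgNT regions lay 48.2 and 88.6 kb away, on the side of TMEM123, where both dense tables had regions. At the position of MMP20 shared by the sparse tables, the density was 1.84 per bp in sgSETD8 and 0.869 per bp in sgNT.

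MMP14, the membrane-type protease that activates MMP2, had 1 region in each dense table over its promoter and body. It spanned 18.7 kb in sgSETD8 and 20.3 kb in sgNT. MMP19, a secreted protease, had 1 region in every table at one position, 0.347 kb long in sgSETD8 and 0.496 kb in sgNT in the sparse pair, and 0.675 kb in sgSETD8 and 3.33 kb in sgNT in the dense pair. MMP28, or epilysin, had 1 region of 13.7 kb in dense sgSETD8, overlapping 1 of 0.412 kb in dense sgNT, and 1 in sparse sgNT. MMP24, a membrane-type protease, had 1 region in sparse sgNT and 1 in dense sgSETD8, at different positions. MMP9, gelatinase B of neutrophils, had 1 region of 0.293 kb in sparse sgNT and none in the other tables.

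ADAMTS9, a protease that cuts versican and aggrecan, had the largest difference of any member in the dense pair. It had 8 regions in sgSETD8 and none in sgNT in the dense pair, and 3 in sgSETD8 and 1 in sgNT in the sparse pair. ADAMTS9-AS1, an antisense name beside it, had 2 more in dense sgSETD8 and none elsewhere, and these 2 lay in introns of ADAMTS9. None of the 8 regions named ADAMTS9 overlapped that gene, and 7 of them lay in ADAMTS9-AS2, another antisense gene. The 8 together covered 11.4 kb, with best rank 6497 of 18061, and the nearest dense sgNT region lay 724 kb or more from each. The single sparse sgNT region, which ranked 3449 of 5186, overlapped 1 of those 8. Without ADAMTS9 and its antisense names the dense pair kept 53 member regions in sgSETD8 and 36 in sgNT. ADAMTS12 had 3 regions in sparse sgSETD8 and none in sparse sgNT, and 1 in each dense table, 1.53 kb apart. ADAMTS14, which trims procollagen, had 1 region in each group in the sparse pair, and 2 in dense sgSETD8 and 1 in dense sgNT, and no position was shared within a pair. ADAMTS7 ran the other way in the sparse pair, with none in sgSETD8 and 2 in sgNT. ADAMTS16 had 1 region of 10.1 kb in sparse sgSETD8, and ADAMTS8 had 2 short ones in dense sgSETD8, with none elsewhere. ADAMTS17 had 1 region of under 0.4 kb in each sgSETD8 table, at different positions.

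**Figure D3:**
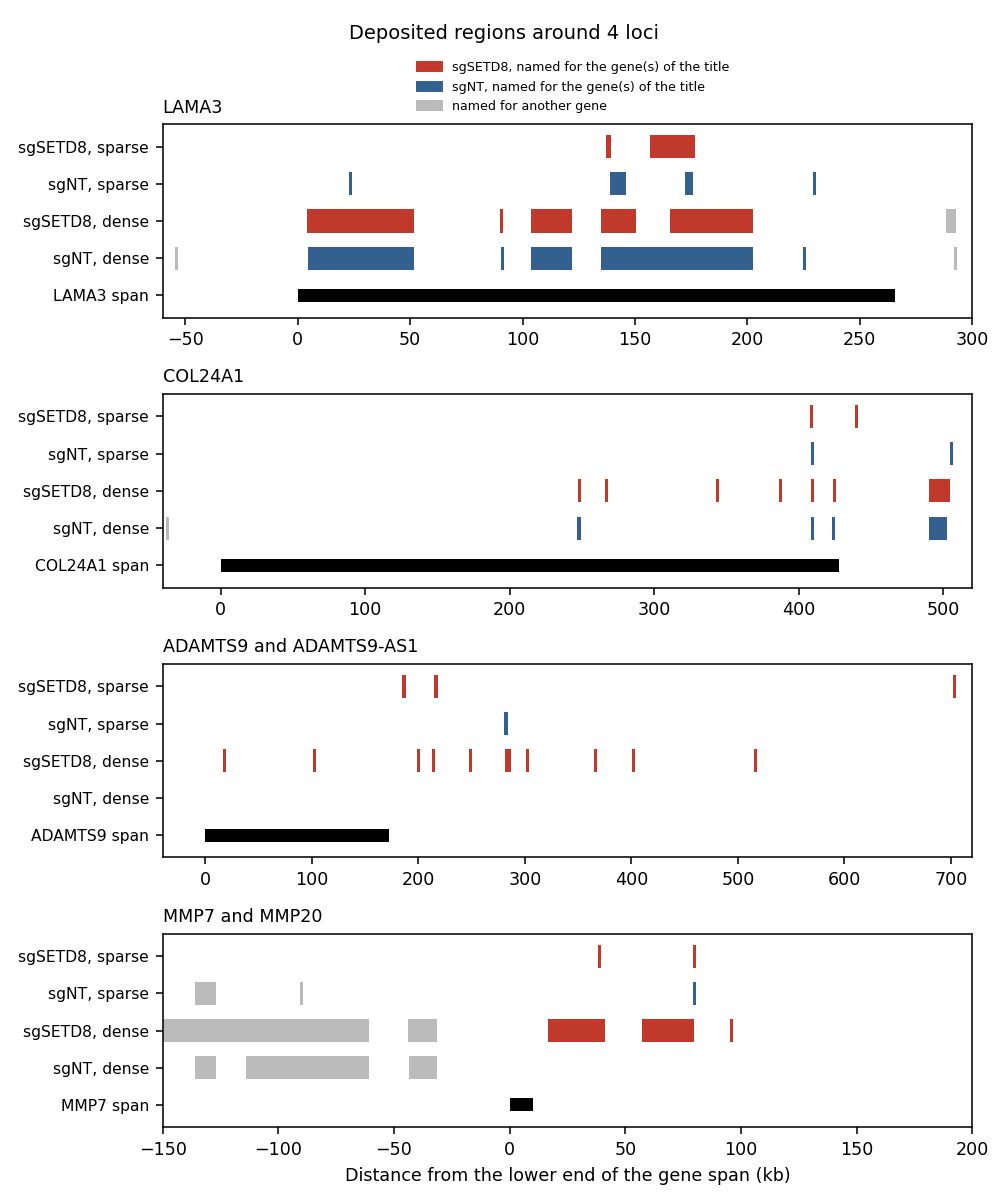
Deposited regions around LAMA3, COL24A1, ADAMTS9 with ADAMTS9-AS1, and MMP7 with MMP20, in kb from the lower end of the gene's span, with sgSETD8 above sgNT in each pair and the gene span in black. Grey regions are named for other genes, and regions too short to see are drawn at a minimum width; dense sgNT has no region in the ADAMTS9 window, against 10 in dense sgSETD8.

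Of the membrane ADAMs, ADAM10 and ADAM17, the main sheddases of Notch and of TNF, were marked in both groups. ADAM10 had 1 region in each sparse table, 0.442 kb long in sgSETD8 and 14.3 kb in sgNT. These overlapped dense regions of both groups that bear the name HSP90AB4P, so ADAM10 is at 0 by name in the dense pair and not by position. ADAM17 had 1 region in each dense table, 3.19 kb long in sgSETD8 and 4.39 kb in sgNT. ADAM9, another sheddase, had 1 dense sgNT region of 24.0 kb with rank 1213, whose dense sgSETD8 counterpart is named SNORD38D. ADAM22 and ADAM32, which lack an active protease site, had 2 and 3 regions in dense sgSETD8 and 1 each in dense sgNT. In the sparse pair ADAM22 had none in sgSETD8 and 1 in sgNT, and ADAM32 had 2 in sgSETD8 and none in sgNT. ADAM5, a pseudogene in humans, had 2 regions in sparse sgSETD8 and 1 in dense sgSETD8, with none in sgNT. ADAM30 had 2 regions in dense sgSETD8 and 1 in dense sgNT, of which the longer ones lie within NOTCH2. ADAM20 had 1 region, in dense sgNT.

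By name, 3 of 68 members, namely ADAM5, ADAMTS17 and MMP7, were found in the sgSETD8 table of each pair but never in sgNT, or 4.41% against 2.85% of all genes. The reverse held for 0 of 68, against 0.858% of all genes. ADAMTS14, COL14A1, COL24A1, LAMA3, LAMB4 and MMP19, 6 of 68 members or 8.82%, had a region in all 4 tables, against 12.1% of all genes. Counts this small leave the members close to the background. By position, the regions merged into 125 loci, of which 1 was found in both sgSETD8 tables only, the one at MMP7, and 0 in both sgNT tables only. Over all loci these patterns made up 0.514% and 0.503%, so both counts are near the background.

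Within a pair, regions of 1 group only can be counted by name or by position. By name, 14 of 41 members in the dense pair were in sgSETD8 only, 34.1% against 20.5% of all genes. In the sparse pair it was 33 of 47, 70.2% against 45.9%. Members in sgNT only were 4 of 41 in the dense pair, 9.76% against 11.4%. In the sparse pair they were 5 of 47, 10.6% against 28.8%. The shares by position follow. In the dense pair 39 of 63 member regions in sgSETD8 had no counterpart in sgNT, 61.9% (48.8 to 73.9), against 34.0% of all regions in that table. In dense sgNT 11 of 36 had none in sgSETD8, 30.6% (16.3 to 48.1), against 22.7% of all regions. In the sparse pair 49 of 57 in sgSETD8 had none in sgNT, 86.0% (74.2 to 93.7), against 85.1% of all regions. In sparse sgNT it was 11 of 19, 57.9% (33.5 to 79.7), against 79.1%. The dense sgSETD8 share is thus the one whose interval lies above its background, and 10 of those 39 regions are named ADAMTS9 or ADAMTS9-AS1. Within that table the 39 were short and low in rank, with a median width of 0.566 kb and a median rank of 13204, against 4.10 kb and 7320 for the 24 with a counterpart.

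**Figure D4:**
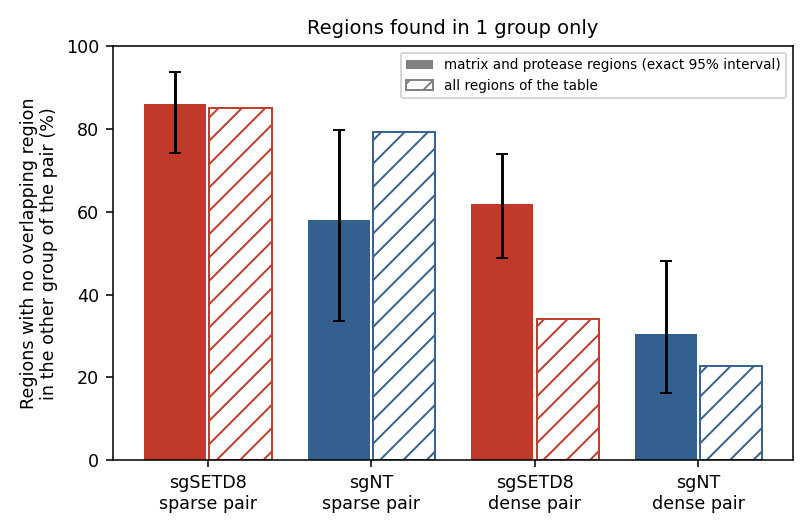
Percent of regions with no overlapping region in the other group of the pair (y axis), for matrix and protease regions (filled, with exact 95% intervals) and all regions (hatched) of each table. Dense sgSETD8 has 61.9% for members and 34.0% for all regions.

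Most member regions of sparse sgSETD8 were found in no other table. Of the 57 sparse sgSETD8 member regions 12 overlapped any dense region, 21.1% against 29.3% of all regions there, while 15 of the 19 in sparse sgNT did so, 78.9% against 79.0%. Kept to those regions, the members' order turned round, with 12 in sgSETD8 and 15 in sgNT. That of all regions did too, with 2132 in sgSETD8 and 4095 in sgNT, so the turn is not particular to the members. The log2 ratio was -0.32 for members and -0.94 for all regions, so the members' ratio still lay above that of all regions. Of the 125 loci, 45 (36.0%) were in sparse sgSETD8 alone, against 19.2% of all loci. The shortest width in that table, 274 bp, was that of 12 of its 57 member regions, 21.1% against 29.7% of all its regions. Chromosome 8, which holds COL14A1, COL22A1, ADAM5, ADAM9 and ADAM32, held 13 of the 57 in sgSETD8 and 1 of the 19 in sgNT. It held 464 of all 7276 sparse regions in sgSETD8 and 195 of all 5186 in sgNT. Their part in the difference was not tested beyond leaving out chromosomes 4, 5, 6 and 8, a setting tried after seeing the data. The members' sparse log2 ratio was then 0.92 (34 regions in sgSETD8 and 18 in sgNT). All sparse regions on chromosomes 4, 5 and 6 also numbered more in sgSETD8 (459, 671 and 550) than in sgNT (261, 279 and 296). The ratio of all regions without chromosomes 4, 5, 6 and 8 is not given, so 0.92 does not show how members compare with all regions there.

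Where both dense tables had nearly the same region, the few members lay near the median ratio of all such regions. At 1769 dense regions that covered each other by at least 90%, the signal density had a median log2 ratio of -0.26 and an SD of 0.24 across regions, and ratios are given relative to that median. Of these, 5 regions in 4 genes were members. MMP14 had 0.595 per bp in sgSETD8 and 0.789 in sgNT, or -0.14 relative to the median. ADAM30 had 0.288 in sgSETD8 and 0.397 in sgNT, or -0.20. COL24A1 had 0.746 in sgSETD8 and 0.956 in sgNT, or -0.09. The LAMA3 regions had 0.318 and 0.544 in sgSETD8, and 0.353 and 0.569 in sgNT, or 0.12 and 0.20. All 5 lay within 1 SD of the median, and 0 of them passed a change of 2 times, against 0.0% of all matched regions. As no matched region passed it, that limit cannot set the members apart. As deposited, on a scale that is not stated, all 5 were lower in sgSETD8, with log2 ratios from -0.47 (ADAM30) to -0.06 (LAMA3). At a mutual cover of 50%, 13 members ranged from -0.20 to 0.54, the highest being ADAM22 with 1.07 in sgSETD8 and 0.892 in sgNT. In the sparse pair at that cover 4 members could be matched, and 1 of them, MMP20 at 1.74, passed a change of 2 times, against 17.2% of all 435 matched regions.

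**Figure D5:**
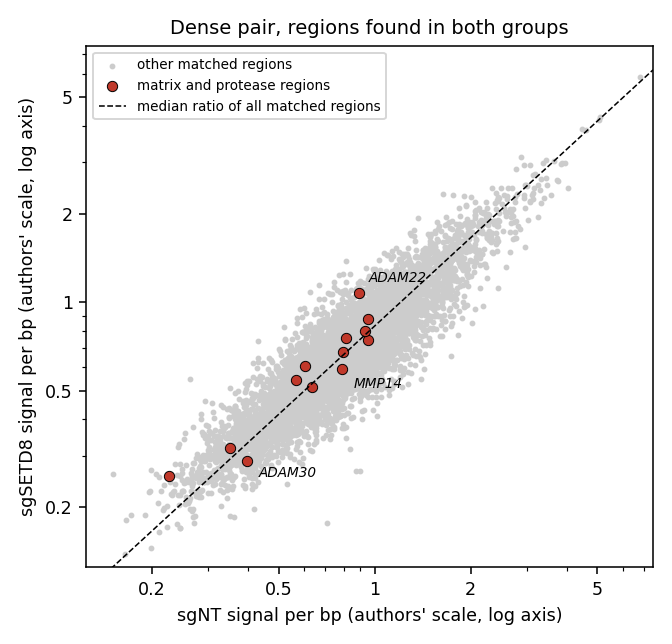
Signal per bp in dense sgSETD8 (y axis) against dense sgNT (x axis) on log axes in the authors' scale, for regions that cover each other by at least 50%, with members in red and the median ratio dashed. The 13 members lie within the cloud of the 6011 matched regions.

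The regions lay mostly in introns or between genes. In the dense pair 45 of 63 in sgSETD8 (71.4%) and 22 of 36 in sgNT (61.1%) were intronic, against 67.5% and 68.3% of all regions. In the sparse pair 28 of 57 in sgSETD8 and 10 of 19 in sgNT were. The members' median distance from the named start site was 24.9 kb in sgSETD8 and 16.6 kb in sgNT in the dense pair, and 32.4 kb in sgSETD8 and 18.6 kb in sgNT in the sparse pair. Over all regions the medians were 21.8 kb in sgSETD8 and 18.8 kb in sgNT in the dense pair, and 34.1 kb in sgSETD8 and 23.6 kb in sgNT in the sparse pair. Of the 175 regions, 91 (52.0%) overlapped the gene they are named for, 37 lay in another gene only and 47 in none. A region of ADAM22 in DBF4 and the region of ADAMTSL3 in SH3GL3 are examples of the second kind. Inside their named genes there were 30 regions in sgSETD8 and 8 in sgNT in the sparse pair, and 31 in sgSETD8 and 22 in sgNT in the dense pair. The same counts and shares over all regions are not given, so they are not shown to be particular to the members. The members' median gene length was 59.0 kb, against 28.3 kb for all genes with a region, and its part in the counts was not tested.

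As a whole, the partners of these genes did not follow the same order in both pairs. Of 79 genes listed for collagen folding, crosslinking, basement membranes, protease inhibition, matrix receptors and protease substrates, 43 had a region. They had 18 regions in sgSETD8 and 29 in sgNT in the sparse pair, with 8 genes at more and 16 at fewer in sgSETD8. In the dense pair they had 57 in sgSETD8 and 53 in sgNT, with 13 genes at more and 10 at fewer. Of all genes with a region in the sparse pair, 51.3% had more and 33.4% fewer in sgSETD8. In the dense pair it was 37.3% and 21.2%. Among the partner lists, that for collagen and laminin crosslinking, processing and assembly alone had more sgSETD8 than sgNT regions in each pair. It held 1 sparse sgSETD8 region against 0 for sparse sgNT, and 3 dense sgSETD8 regions against 2 for dense sgNT. Genes for collagen folding and modification had 0 in sgSETD8 and 4 in sgNT in the sparse pair, and 9 in sgSETD8 and 6 in sgNT in the dense pair. Receptors for collagen or laminin had 4 in sgSETD8 and 7 in sgNT in the sparse pair, and 14 in sgSETD8 and 10 in sgNT in the dense pair. Protease inhibitors and regulators had 7 in sgSETD8 and 8 in sgNT in the sparse pair, and 19 in each group in the dense pair. Genes of basement membrane partners had 5 in sgSETD8 and 4 in sgNT in the sparse pair, and 6 in each group in the dense pair. Within this list the dense counts ran both ways. NID1, which links laminin to collagen IV, had 2 in dense sgSETD8 and none in dense sgNT, while HSPG2, or perlecan, had 1 in dense sgSETD8 and 2 in dense sgNT. Substrates of ADAM or ADAMTS proteases had 1 in sgSETD8 and 6 in sgNT in the sparse pair, and 6 in sgSETD8 and 10 in sgNT in the dense pair. Theirs was the list with fewer in sgSETD8 in both pairs, and it included NOTCH1, with 0 in sgSETD8 and 1 in sgNT in the sparse pair, and 1 in sgSETD8 and 3 in sgNT in the dense pair.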

How the data were processed

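Each table held H3K27ac regions with coordinates, a gene annotation and 1 value, a signal as deposited by the authors, equal to a density of up to 4 decimals per bp times the region's length. Its scaling is not stated. Per the submitters' processing notes, cutadapt trimmed the reads and Bowtie2 aligned them, with hg38 as the build. How peaks were called, stitched and annotated is not given in the sources used here. Antibody labels name H3K27ac, while the design text names H3K27me1. Tables were assigned to groups by the guide in their region identifiers, which in the sparse sgNT table name only the cell line. Which sample of a group a table holds is not resolved, 0 value columns lacked a group, and the labels do not say whether the 2 samples of a group are separate cultures. Overlaps used bedtools 2.31.1 (1 bp or more), and intervals were Clopper-Pearson (scipy 1.17.1, with Python 3.11.15, pandas 2.3.3, numpy 2.4.6 and matplotlib 3.10.9). Overlap counts were tested on simulated regions. Genes named were the best-ranked members, those with the largest differences, and those in both tables of a group or in all 4; others named beside them were chosen after their values were seen. Members and lists were chosen with earlier results of these data known.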

Additional observations from a re-analysis of the deposited data

How the results depend on the processing

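Of 48 log2 ratios of member regions and genes under other settings, 46 were above 0 and 2 below. All these settings re-cut the same 4 tables. With no such limit, the log2 ratio of all regions was itself 0.489 (sparse) and 0.254 (dense). That of all genes was 0.396 (sparse) and 0.156 (dense). A tally against 0 thus does not show that members exceeded all regions or genes. The 2 ratios below 0 were those of the sparse pair limited, after seeing the data, to regions that overlap the dense pair. They were -0.322 for regions and -0.263 for genes, and all sparse regions so limited gave -0.94. Leaving out either pair gave a log2 ratio of 0.807 to 1.58 for regions and 0.455 to 1.58 for genes. Among the best-ranked 5000 regions of each table, where both groups have the same number of regions, the dense region ratio was 0.263 (12 in sgSETD8 and 10 in sgNT). The sparse region ratio was then 1.14 (42 in sgSETD8 and 19 in sgNT). Without ADAMTS9, also tried after seeing the data, the dense region ratio was 0.558. The share of dense sgSETD8 member regions without a counterpart was 74.6% when an overlap of 50% was asked for, 47.8% at 500 bp or longer and 16.7% among the best-ranked 5000, where that of dense sgNT was 0.0%. In sparse sgNT it was 25.0% at 500 bp or longer. Shares over all regions at these settings are not given, so these values do not show how members compare with all regions there. The median log2 density ratio of matched members was -0.0935 relative to all matched regions and -0.357 as deposited. At a cover of 50% it was 0.122 in the dense pair, where 9 of 13 members lay above the median of all, and 0.15 in the sparse pair, where no stricter cover was used. The causes of these shifts were not tested. No paired analysis was possible because the labels give no replicate numbers; the ratios within each pair of tables are descriptions with no test. Without read counts, depth cannot be set against the number of regions called.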
